A study of Arabidopsis thaliana with 4 samples.

Results

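The values described here are the co-translational RNA decay indices of Arabidopsis thaliana genes in the 2 libraries titled Col-0_CHX, taken on their own. The members are the loci listed in both files whose index is not a value that over 10 loci of the same file share. Of 17527 loci in both files, 9327 were set aside by that rule and 8200 (46.8%) were kept, and the 4 libraries of the whole series list 23498 loci between them. Replicate 1 lists 18321 loci and replicate 2 lists 18215.

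Both libraries came from wild type of the Col-0 accession, with no allele or transgene named. The labels give immature inflorescence as the tissue, describe buds taken from plants of about 4 weeks kept in 16 h of light and 8 h of dark, and state no further treatment. CHX stands in the titles and is not spelled out in the labels. PolyA RNA was profiled by GMUCT, global mapping of uncapped and cleaved transcripts, with strand-specific reads of 50 nt. Nothing in the labels says whether the 2 libraries came from separate plants, so the spread between them may be technical. Each p-value below sets the distance of a mean log2 index from a reference level against that spread, with variance partly pooled over loci. No p-value below can therefore be taken to cover variation between plants.

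GMUCT reads the ends of RNA fragments that carry a 5′ monophosphate, which are intermediates of decapping and exonucleolytic decay or products of endonucleolytic cleavage. In plants the cytoplasmic exonuclease XRN4 can follow the last ribosome on a decapped messenger RNA, so that fragment ends keep the spacing of codons, and this course is called co-translational decay. Cleavage guided by microRNAs also leaves fragments with a 5′ monophosphate, and XRN4 removes many of them.

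The index is a linear ratio deposited as 1 value per gene. No source used here gives its formula, its read minimum or the sequencing depth, so the level is described as the files give it, and no counting interval can be attached to a value. Repeated values took 43.6% of the loci of replicate 1 and 42.7% of those of replicate 2. The commonest was exactly 1, at 468 loci in replicate 1 and 485 in replicate 2, and 1.5, 0.5 and 2 followed with 454, 415 and 305 loci in replicate 1. At the edge of the rule, 24 values of replicate 1 were shared by 11 loci and were set aside, and 19 values shared by 10 loci were kept. The loci set aside spread more widely than the loci kept, with an SD of log2 index of 0.83 against 0.47 in replicate 1 and of 0.80 against 0.44 in replicate 2.

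The labelled tissue was not borne out by its defining genes. Of 19 floral regulators, 4 were listed in replicate 1 and 3 in replicate 2, only SEP4 and SPT were in both files, and none was kept, while LFY, AP1, AP3, PI and AG, which specify flowers and floral organs, were not in both files. Of 18 tapetum and pollen wall genes, 2 were in both files and 1 was kept. Of 13 root genes, 2 were in both files and 1 was kept. All 9 leaf defence genes were listed in both files and kept, among them PR1, BGL2 and PR5, the classical pathogenesis-related genes. These counts describe which genes have an index in the files, and the part of tissue in the results below was not tested.

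The index of most loci lay a little above 1. Its median over the 8200 loci was 1.34 in replicate 1, with a 5th to 95th percentile range of 0.908 to 2.32, and 1.27 in replicate 2, with a range of 0.858 to 2.13. In both libraries at once the index was over 1 at 6761 loci (82.5%) and under 1 at 369 (4.5%). The median over loci of the mean log2 index was 0.39, and levels of groups are therefore read below against the medians of all loci rather than against 1 alone.

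The libraries ranked loci alike in part. Across the 8200 loci the log2 indices gave a Pearson r of 0.574 and a Spearman rho of 0.537, as a description of loci that share gene structure and library preparation, and across the 9327 loci set aside Pearson r was 0.150. The median locus differed by 1.14-fold between libraries, 277 loci (3.38%) differed by over 2-fold, and 1070 (13.0%) lay on opposite sides of 1. Loci in the top 10% of replicate 1, with a median of 2.32 there, had a median of 1.78 in replicate 2, and 46.5% of them were in the top 10% again. Loci in its bottom 10%, with a median of 0.908, had a median of 1.02 in replicate 2, and 40.6% stayed in the bottom 10%. The extremes of a library thus lay closer to the middle in the library that was not used to sort them.

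**Figure D1:**
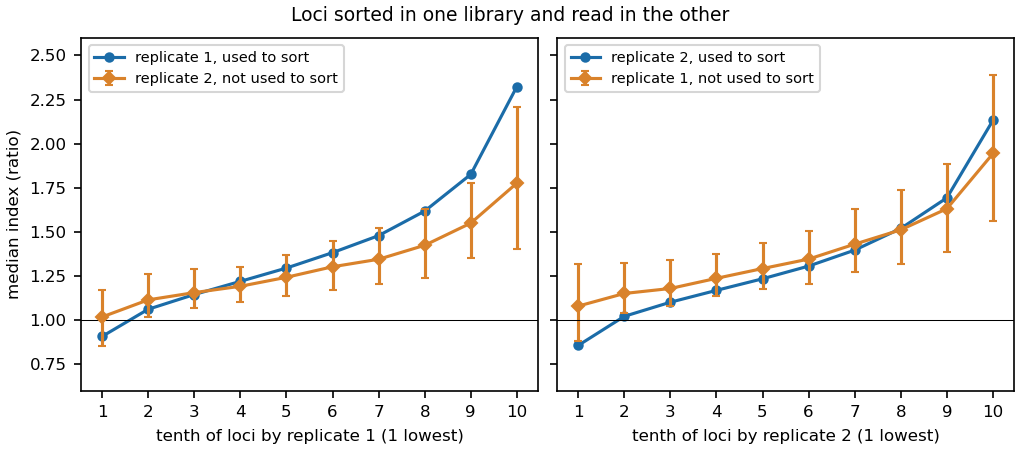
Median index (ratio) of loci sorted into groups of 10% by replicate 1 (left) or replicate 2 (right), 820 loci in each group. Circles show the library used to sort and diamonds the other library with its 25th to 75th percentile; the top 10% of replicate 1 have a median of 2.32 there and of 1.78 in replicate 2.

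Levels were sorted into 3 bands that ask the same of both libraries. The high band, an index over 2 in both, held 291 loci (3.55%). The near-1 band, a log2 index within 0.3 of 0 in both, held 1824 (22.2%), and the low band, an index under 0.5 in both, held 19 (0.232%). Relative to 1 the bands were lopsided, but with each library divided by its median they held 69 high and 48 low loci, so the difference in number goes largely with the offset of the medians from 1. A symbol was available for 123 of the high loci, 938 of the near-1 loci and 5 of the low loci, against 4057 of all 8200. Over the 5 chromosomes the high band took between 3.26% and 4.05% of loci and the low band held 2 to 6 loci, the most on chromosome 2.

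**Figure D2:**
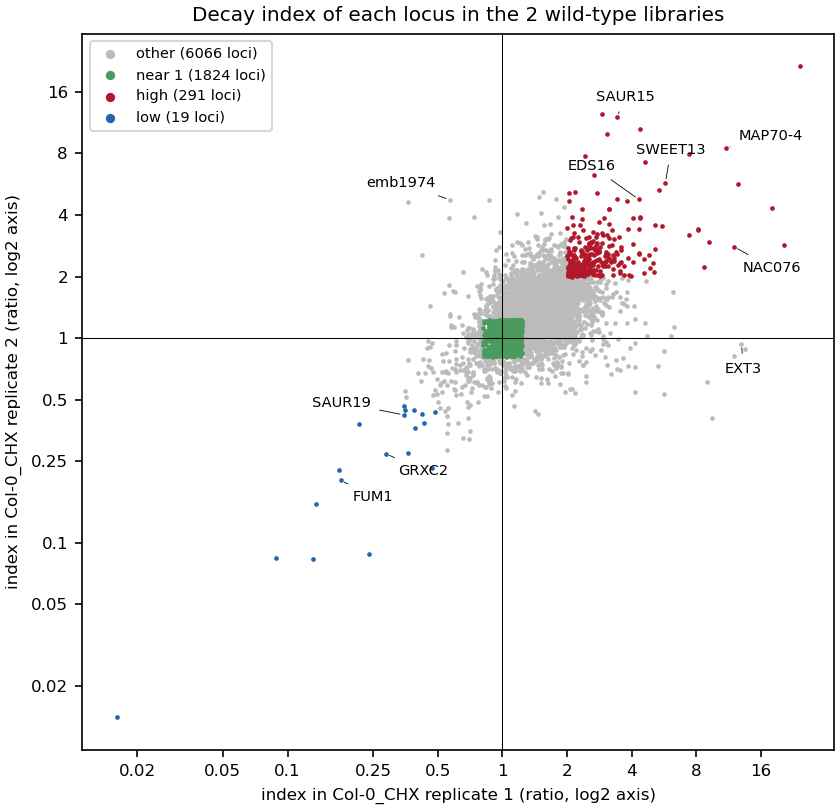
Index of each of the 8200 loci in Col-0_CHX replicate 1 (x axis) and replicate 2 (y axis), both on log2 axes. Red points are the 291 high loci, green the 1824 near-1 loci, blue the 19 low loci and grey the rest; EXT3 and emb1974 are examples far from the diagonal.

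An intercept-only limma test of the mean log2 index against 0, with Benjamini-Hochberg adjustment over all 8200 loci and a threshold of 0.05, called 1761 loci above 1 (21.5%) and 58 below 1 (0.707%). Of the high loci 275 were called, of the low loci 18, and of the near-1 loci none. These calls rest on the settings of the test: with a mean-variance trend the same loci gave 0 calls, with the smallest adjusted p at 0.0507, and with every listed locus included there were also 0. A robust fit called 1397 above and 45 below, and quantile normalization 1842 and 58. With the libraries centred on their medians, so that the test asks about distance from the median locus, 0 were called above and 1 below. The band counts and the values in each library are therefore given first below, and the adjusted p values beside them should be read with that limit.

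The highest loci with a symbol mixed transporters, regulators of development and stress genes. Highest by its lower library was MAP70-4, which binds microtubules, at 11 in replicate 1 and 8.5 in replicate 2. SWEET13, a sucrose exporter of the SWEET family, had 5.75 in both libraries. EDS16, also called ICS1, is the isochorismate synthase of salicylic acid synthesis and had 4.32 and 4.77. For these 3 genes the libraries differed by at most 1.29-fold, against 1.14-fold at the median locus, and lay far above the 95th percentile of all loci. A simple ratio such as 8.5 is kept where few loci share it, and the reads behind it are not known.

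Further high loci were less even. The homeobox gene ATH1 had 8.17 in replicate 1 and 3.42 in replicate 2, and IDD11, a zinc finger protein of the indeterminate domain family, had 8.17 and 3.39. SULTR4;2, a vacuolar sulfate transporter, had 9.17 and 2.94, and PQL3, a PsbQ-like protein, had 2.92 and 12.5. All 4 stayed above 2.9 in both libraries, yet their libraries differed by 2.39-fold to 4.29-fold, and limma called ATH1 and IDD11 (adjusted p = 0.0449 for each) but not SULTR4;2 (0.0528) or PQL3 (0.0619).

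Other high loci had closer values. MIOX4, a myo-inositol oxygenase, had 5.17 and 3.58, NIK1, a receptor-like kinase that interacts with a geminivirus protein, had 3.14 and 3.60, and STP7, a sugar transporter, had 4.06 and 2.89. OXS3, named for oxidative stress tolerance, had 3.24 and 2.84. The 4 were called at an adjusted limma p of 0.0435, the smallest value that the test gave and shared by many loci. Among loci without a symbol, picked out after their values were seen, AT5G63905 had the highest index of all in both libraries, 24.25 and 21.3, and AT3G03030 had 7.39 and 7.91.

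**Figure D3:**
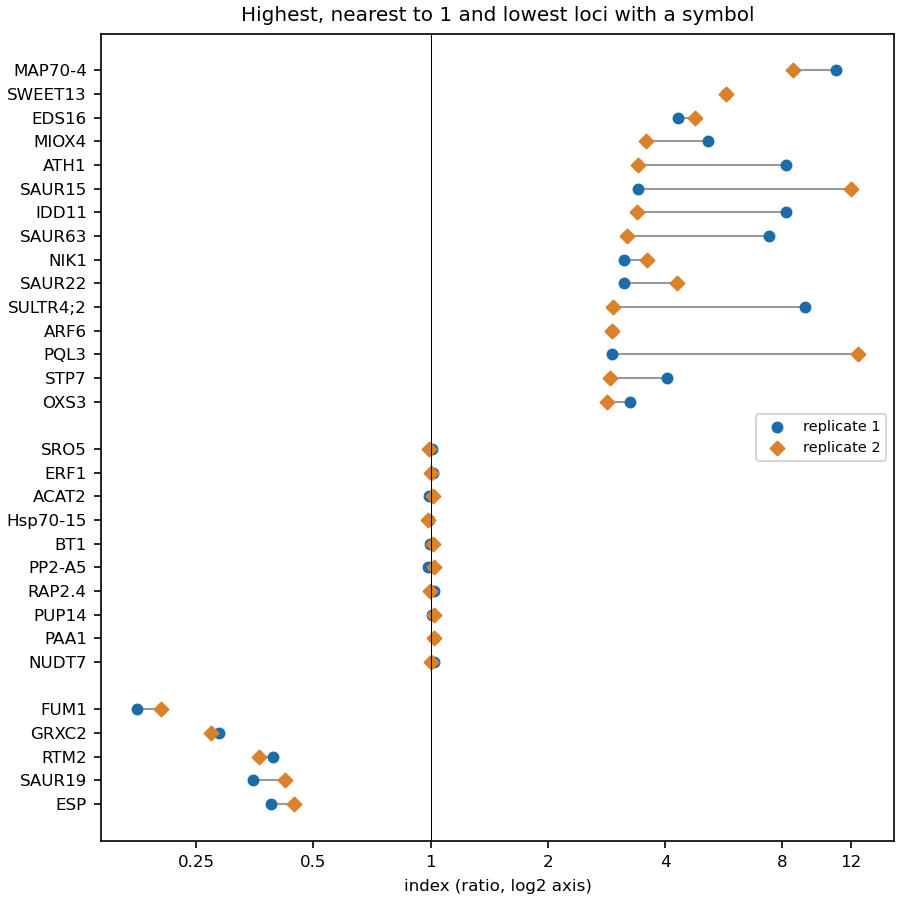
Index (log2 axis) in replicate 1 (circles) and replicate 2 (diamonds) of the 15 highest, the 10 nearest to 1 and the 5 lowest loci that have a symbol. Lines join the libraries of a locus; SWEET13 has 5.75 in both, and ATH1, IDD11, SULTR4;2 and PQL3 show long lines.

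Genes known as microRNA targets had the largest share in the high band of the lists with over 10 kept loci. Of 44 members 41 were in both files and 23 were kept, of which 7 (30.4%) were high against 3.55% of all loci, 1 was near 1 and none was low. Their median index was 1.55 in replicate 1 and 1.68 in replicate 2, against 1.34 and 1.27 over all loci, and 16 of the 23 lay above the median of all loci in both libraries, where 35.7% of all loci did. Limma called 14 of them above 1, against 21.5% of all loci. With each library divided by its own median, 2 of the 23 stayed over 2 in both libraries, against 0.841% of all loci.

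HAM1, a GRAS protein that maintains shoot meristems, had an index of 3.14 in replicate 1 and 2.83 in replicate 2, and its relative HAM2 had 2.47 and 2.05. ARF6, an auxin response factor that promotes flower maturation, had 2.92 in both libraries. Its mean log2 index was 1.55 ± 0.0958 (limma SE, with variance partly pooled over loci, n = 2, limma adjusted p = 0.0435). TCP2, a TCP factor of leaf growth, had 2.95 and 2.24. These 4 were in the high band in both libraries.

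NAC1, a NAC factor of auxin signalling, had 3.52 and 2.33. PHO2, the ubiquitin-conjugating enzyme that limits phosphate uptake, had 2.58 and 2.1, and CSD1, the cytosolic copper/zinc superoxide dismutase, had 2.52 and 2.06, while its plastid relative CSD2 had 1.90 and 1.77. All 4 lay above the 75th percentile of loci in both libraries. At the lower end of the list stood SPL3, a promoter of the floral transition, with 1.28 and 0.780, and APS1, an ATP sulfurylase, with 1.14 and 1.17.

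Targets of the same function did not all share a level. Among the class III homeodomain genes of leaf polarity and vasculature, ATHB-15 had 1.52 and 1.68, PHV 1.33 and 1.27, HB-8 2.86 and 1.58, and PHB 1.27 and 2.72. HB-8 thus lay above PHB in replicate 1 and below it in replicate 2. Among the AP2-type repressors of flowering, TOE2 had 1.99 and 1.56, AP2 1.55 and 1.74, and RAP2.7 1.19 and 1.24. The list was cleaned by gene names only, but it was drawn up with earlier results of these data known.

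Of the genes that make or use small RNAs, few could be read. AGO1, the slicer of the microRNA pathway, had 1.76 and 1.77, DCL1, which cuts microRNA precursors, had 1.21 and 1.16, and AGO4, the Argonaute of DNA methylation, had 1.59 and 1.27. The other 16 of 19 small RNA and cap-binding genes in both files were set aside, among them ABH1, the large subunit of the nuclear cap-binding complex, and CBP20, the small subunit. The decay list kept 10 of its 23 loci in both files: XRN4 had 1.91 and 1.61 (limma adjusted p = 0.0438), the decapping subunits DCP1 and DCP2 had 2.01 and 1.36 and 1.56 and 1.21, and DCP5, an activator of decapping, had 1.63 and 1.79. The scaffold VCS stood near 1 at 1.18 and 1.09, as did the deadenylases CAF1a at 1.11 and 1.09 and CAF1b at 1.03 and 1.00. XRN2 was the lowest of the list at 1.14 and 0.885, also near 1. VCR, the tandem copy of VCS, had 1.11 and 2.86, and reads shared between the copies could be split by the counting, so both values are uncertain.

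**Figure D4:**
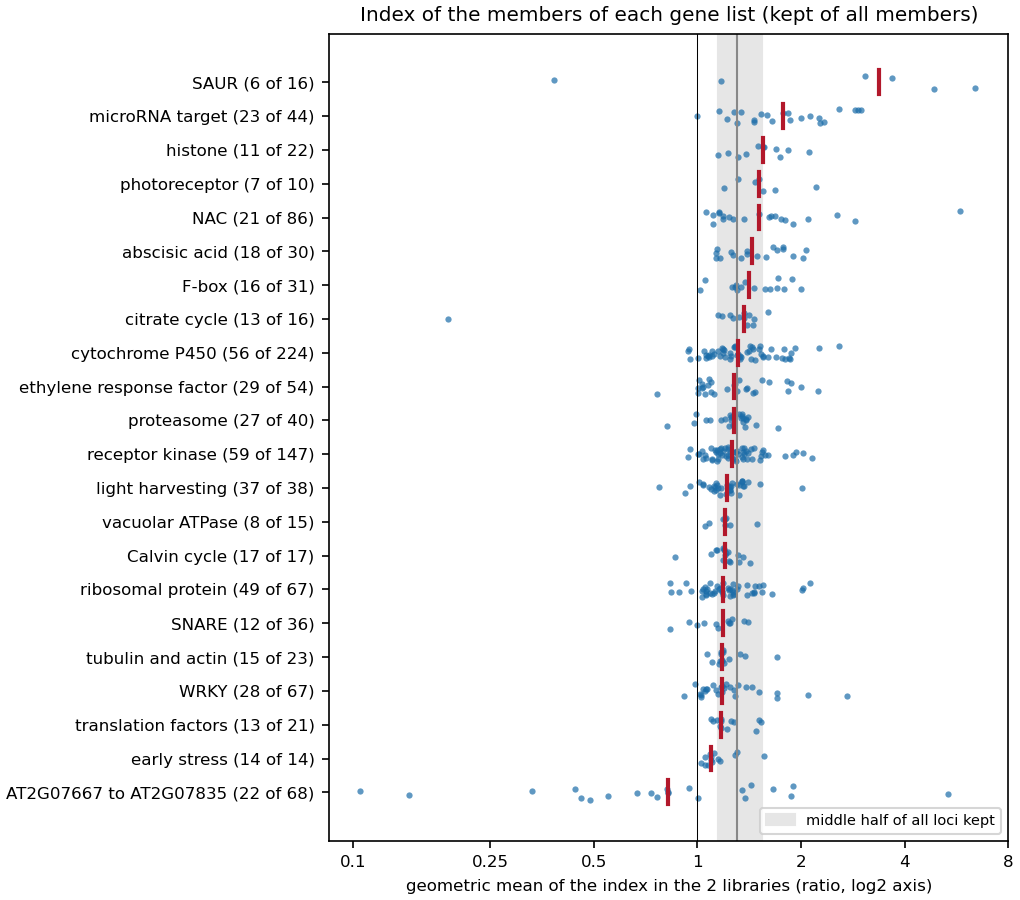
Geometric mean of the index in the 2 libraries (log2 axis) for each kept member of 22 gene lists, with the list median as a red bar, the middle 50% of all loci in grey and their median as a grey line. Numbers give members kept of all members; microRNA targets lie to the right, early stress genes lie at the left of the middle range, and the loci numbered AT2G07667 to AT2G07835 have the lowest median.

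Clock and photoreceptor genes were among the other lists that lay above the median of all loci. All 5 kept clock genes lay above both medians, where 35.7% of all loci did, and 4 were called, against 21.5% of all loci. Of those called, GI, a regulator of flowering time, had 1.64 and 2.06, and PRR7 had 1.75 and 1.47. The blue-light F-box proteins ZTL and FKF1 had 1.54 and 1.67 and 1.51 and 1.44. A further 10 clock genes in both files were set aside, so this describes a small share of the list. Of 7 photoreceptor genes 4 were called, against the same 21.5%: the cryptochromes CRY1 and CRY2 had 2.49 and 1.96 and 1.63 and 1.73, and the phototropins PHOT1 and PHOT2 had 1.41 and 1.54 and 1.47 and 1.63. UVR8, the UV-B receptor, was the lowest at 1.16 and 1.24.

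Genes of abscisic acid signalling and synthesis lay above both medians at 12 of 18 kept loci, against 35.7% of all loci, with list medians of 1.52 and 1.37. The phosphatases ABI1 and ABI2, which restrain the pathway, had 1.87 and 1.69 and 1.90 in both libraries. The bZIP factors ABF1 and ABF4, which act at its end, had 1.74 and 2.47 and 1.97 and 2.08, and all 4 were called. The synthesis genes ABA1 and ABA2 had 1.55 and 1.42 and 1.89 and 1.65. The kinase gene SNRK2.2 was at 1.16 and 1.11 and the receptor gene PYL5 at 1.22 and 1.06, both near 1.

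Histone genes had medians of 1.46 and 1.64, and 5 of 11 were called, against 21.5% of all loci. RAT5, a histone H2A, was high at 2.03 and 2.19, and HTA9, an H2A.Z variant, was near 1 at 1.20 and 1.10. Histone copies are similar in sequence and no source used here gives the handling of reads that match several. F-box genes had medians of 1.44 and 1.4 over 16 loci, from FBX2 at 2.49 and 1.60 to FBS1 at 0.991 and 1.04.

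NAC factors spanned a wide range, with 4 of 21 loci high, against 3.55% of all loci. Another 5 were near 1, close to the 22.2% of all loci. NAC076, a xylem vessel regulator, had 12 in replicate 1 and 2.80 in replicate 2, and limma did not call it (adjusted p = 0.0636). NAC6, also known as ORE1, a regulator of leaf senescence, was even at 2.54 in both libraries, and NAC089 had 2.15 and 2.04. The stress-induced ATAF1 and ATAF2 were near 1, at 1.20 and 1.12 and at 1.19 and 1.03. The bHLH list held 2 high loci of 11, against the same 3.55%. These were FBH2 at 3.29 and 2.04 and FBH4 at 2.26 and 2.35, both activators of CONSTANS. Their relatives FBH1 and FBH3, which share that role, had 1.46 and 1.13 and 1.77 and 1.31, outside the band. MYB factors held 1 high locus of 24, close to the share of all loci. It was MYB20, with 2.02 and 2.54, and the flower-expressed MYB21 was lowest at 0.893 and 0.905.

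Genes induced early by stress gathered near 1. All 14 members were kept, 11 (78.6%) lay in the near-1 band against 22.2% of all loci, none was high or low, and the medians were 1.14 and 1.09. RHL41, a zinc finger factor of stress responses, had 1.04 and 1.01, WRKY40 had 1.01 and 1.09, and the ethylene response factors ERF5 and ERF6 had 1.10 and 1.05 and 1.09 and 1.03. MYC2, the jasmonate factor, had 1.14 and 1.09. The exception that limma called was LTI78, a cold and drought gene, at 1.66 and 1.48 (adjusted p = 0.0466). With each library divided by its median, 9 of the 14 were in that band, against 44.1% of all loci. Above both medians lay 1 of 14, where 35.7% of all loci did.

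Ethylene response and DREB factors lay near 1 at 12 of 29 kept loci (41.4%), against 22.2% of all loci. Another 10 lay above both medians, where 35.7% of all loci did, so that the list covered the whole middle range. ERF1 had 1.01 and 1.00, ERF13 1.02 and 0.991, and ERF2 1.07 and 0.994. RAP2.12, a factor of the low-oxygen response, had 2.07 and 1.59, and ERF15 had 1.80 and 2.22. CBF4, a drought-induced factor, was lowest at 0.831 and 0.705, without passing the limma test (adjusted p = 0.0888). With the libraries divided by their medians the share near 1 was 37.9%, under the 44.1% of all loci, so the near-1 count of this list turns on the scaling.

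WRKY factors lay near 1 at 11 of 28 loci, against 22.2% of all loci, with medians of 1.15 and 1.25. This count is for the undivided scale. With each library divided by its median the near-1 share of all loci was 44.1%. WRKY17, WRKY51 and WRKY58 each stood between 1.00 and 1.03 in both libraries. WRKY3 was the exception at 2.72 and 2.73, and WRKY2 had 1.81 and 1.61. The 9 leaf defence genes were spread out, with EDS16 high and EDS1, PAD4, EDS5 and FMO1 near 1. In that order the near-1 genes had 1.11 and 1.03, 1.07 and 1.20, 1.04 and 0.865, and 0.981 and 0.880. Between these and EDS16 lay PR5 at 1.58 and 1.57, PR1 at 1.36 and 1.77, BGL2 at 1.31 and 1.28, and NPR1 at 1.28 and 1.22. EDS1 and PAD4 are lipase-like immune regulators, EDS5 exports the salicylic acid precursor that EDS16 makes, and FMO1 acts in systemic resistance.

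The 10 loci with a symbol nearest to 1 were of mixed function. Besides ERF1 they were SRO5 (1.01 and 0.989), RAP2.4 (1.02 and 0.994), NUDT7, a Nudix hydrolase of defence (1.02 and 1.00), BT1, a BTB and TAZ domain protein (0.996 and 1.02), and PP2-A5, a phloem protein homologue (0.985 and 1.02). ACAT2, a thiolase, had 0.989 and 1.01, Hsp70-15 had 0.991 and 0.985, PUP14, a purine permease, had 1.01 and 1.02, and PAA1, a plastid copper transporter, had 1.02 in both. Their libraries differed by at most 1.03-fold.

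Lists of ribosomal proteins, photosystems, the Calvin cycle, tubulin and actin, translation factors and vacuolar ATPase had medians below those of all loci and above 1. Ribosomal protein genes, cytosolic and organellar together, had medians of 1.18 and 1.17 over 49 loci. Of these 19 (38.8%) were near 1, against 22.2% of all loci, none was high and 3 were called, against 21.5%. With each library divided by its median the near-1 share of all loci was 44.1%. The near-1 counts of these lists are for the undivided scale. RPL34 was highest at 2.32 and 1.95, and RPS19 lowest at 1.04 and 0.662. Genes of the photosystems and light harvesting had medians of 1.22 and 1.20 over 37 loci. There 15 were near 1 and 2 called, against 22.2% and 21.5% of all loci. Their median difference between libraries was 1.06-fold against 1.14-fold for all loci. PSAD-2, a subunit of photosystem I, was highest at 2.09 and 1.93, while its copy PSAD-1 had 1.43 and 1.28. CAB1, a chlorophyll a/b binding protein with near-identical neighbours CAB2 and CAB3, had 1.05 and 0.572 and is uncertain for that reason.

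Calvin cycle genes had medians of 1.22 and 1.20 over 17 loci, with 7 near 1, against 22.2% of all loci, and no high locus. RBCS1B and RBCS3B, neighbouring copies of the Rubisco small subunit, had 0.836 and 0.880 and 1.47 and 1.37, a split that shared reads could affect. Tubulin and actin genes had medians of 1.21 and 1.15 over 15 loci, translation factors 1.26 and 1.18 over 13, and vacuolar ATPase subunits 1.17 and 1.17 over 8. In the same order, 1, 3 and 1 of their loci lay above both medians, where 35.7% of all loci did. ACT1 (1.63 and 1.79), EIF4A-2 (1.59 and 1.47) and the proteolipid gene AVA-P1 (1.46 and 1.53) were the highest of the 3 lists.

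Lists near the middle were proteasome subunits (medians of 1.30 and 1.24 over 27 loci), receptor kinases (1.31 and 1.24 over 59), cytochromes P450 (1.35 and 1.32 over 56), ABC transporters (1.26 and 1.24 over 30) and glycosyltransferases (1.35 and 1.25 over 30). NIP6;1, a boric acid channel, was highest of 17 kept loci on the aquaporin list, at 2.52 in replicate 1 and 2.47 in replicate 2. RD28 followed at 1.86 and 2.58, and the plasma membrane aquaporin PIP1C was near 1 at 1.03 and 0.974. The list also took in CIPK15, which is a kinase gene and no aquaporin. CYP71B26 was the highest P450 at 2.57 and 2.59, and UGT72B3 the highest glycosyltransferase at 2.51 and 2.12. The glutathione transferase GSTU4 was low-lying at 0.557 and 0.382, and limma called it below 1 (adjusted p = 0.0466).

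Smaller lists gave less room for a statement. Of 9 kept chaperone genes 3 were near 1 and of 12 SNARE genes of membrane fusion 5 were, against 22.2% of all loci. Loci with symbols of Rab GTPases had medians of 1.31 and 1.23 over 24 loci. They include AT5G66400, a dehydrin that also carries the symbol RAB18, and RABE1b, a plastid elongation factor. RING and U-box ubiquitin ligases had 1.31 and 1.32 over 29 loci, and expansins with xyloglucan hydrolases 1.38 and 1.16 over 12. RHA2B, a RING ligase of abscisic acid responses, was high at 2.26 and 2.15, and the expansin EXPA8 had 1.69 and 2.73. Cellulose synthases and the genes with conserved upstream reading frames kept 5 loci each, and aminoacyl-tRNA synthetases 6. Their highest loci were CESA2 at 1.61 and 1.4, bZIP1 at 1.70 and 1.45 and SRS at 1.81 and 2.82.

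Symbols that share a stem gave 55 families of at least 8 loci, with 758 loci in all. Homeobox genes under the stem HB had the highest median (1.90 and 1.59 over 12 loci, 7 called above 1 against 21.5% of all loci), although HB2 at AT3G10520 is a haemoglobin and no homeobox gene. HB-12, a drought-induced homeodomain factor, was high at 2.52 and 2.90, HB16 had 2.12 and 2.00, and the shade-avoidance factor HB-2 had 2.01 and 1.96. HB-1 was lowest at 1.02 and 1.44. Behind it came the MPK kinases (1.68 and 1.31), whose median difference between libraries was 1.4-fold, and the CIPK kinases of calcium signalling (1.65 and 1.55 over 13 loci, 8 called against the same share). CIPK5 was highest at 2.41 and 2.54, and CIPK23, which acts on potassium and nitrate uptake, had 2.01 and 1.77.

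The BBX zinc finger family split by its members. BBX14, BBX15 and BBX17 were high in both libraries, at 2.65 and 2.34, 3.05 and 2.54, and 2.65 and 2.98, and BBX16 had 2.00 and 1.70. BBX28, BBX29, BBX30 and BBX32 lay between 0.992 and 1.47 in replicate 1 and between 1.05 and 1.36 in replicate 2, without overlap with the first 4. The first 4 belong to the group with 1 B-box and a CCT domain, and the others have a B-box without a CCT domain. That division was seen after the values and was not tested.

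The lowest family medians belonged to ERF (1.11 and 1.07 over 15 loci, 9 near 1), SYP, the syntaxins of membrane fusion (1.17 and 1.08), JAZ, the jasmonate repressors (1.14 and 1.12), AGP, the arabinogalactan proteins (1.21 and 1.04), RPS (1.05 and 1.16) and PUB, the U-box ubiquitin ligases (1.20 and 1.09). ERF here includes the release factors ERF1-1 and ERF1-2, and RPS joins ribosomal proteins with the disease resistance genes RPS2 and RPS4. In JAZ, 6 of 9 loci were near 1, and the near-1 share of all loci was 22.2%. The 6 ran from JAZ8 at 0.900 and 0.902 to JAZ6 at 1.15 and 1.22, and JAZ11 was high at 2.23 and 2.21. The defence syntaxins SYP121 and SYP122 had 1.11 and 1.19 and 1.05 and 1.03. PUB22 and PUB23, which dampen immune signalling, had 0.983 and 1.07 and 1.02 and 1.12, whereas PUB13 had 1.85 and 1.75.

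**Figure D5:**
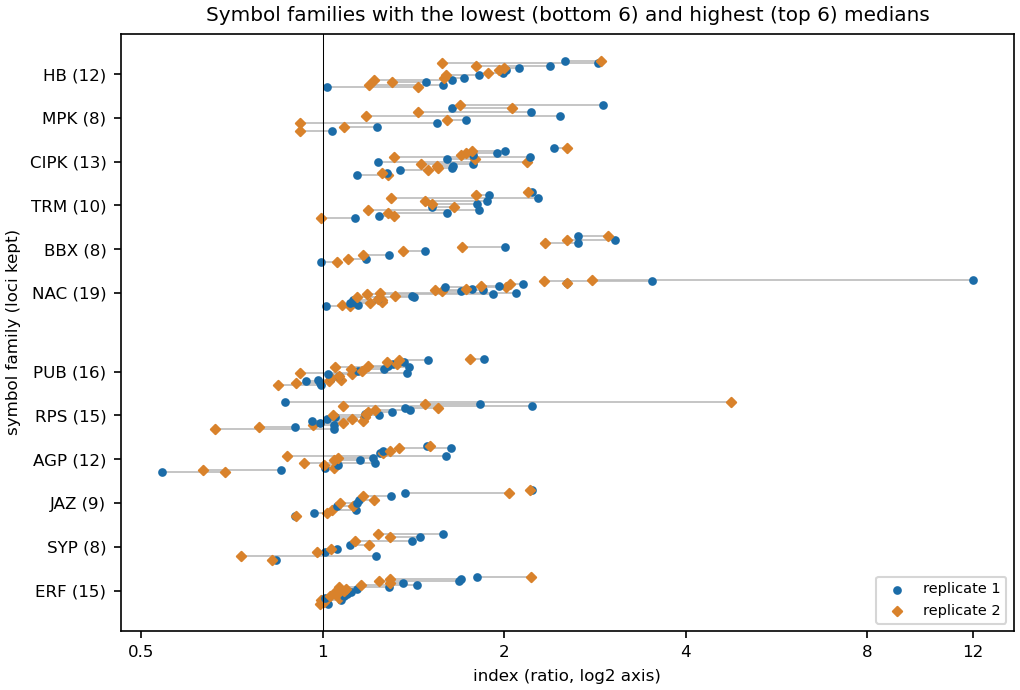
Index (log2 axis) in replicate 1 (circles) and replicate 2 (diamonds) of each locus in the 6 symbol families with the highest medians (top) and the 6 with the lowest (bottom), lines joining the libraries of a locus. BBX splits into 4 upper and 4 lower loci in both libraries, and most ERF and JAZ loci lie close to 1.

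SAUR genes, small auxin-induced genes of cell expansion, included loci in the high and the low band. The list was drawn up after their values were seen, and of 11 loci in both files 6 were kept. SAUR15 had 3.42 and 12, SAUR63 7.42 and 3.2, SAUR22 3.14 and 4.30, and SAUR24 3.85 and 2.45, all in the high band. SAUR19, in the same cluster of near-identical copies as SAUR22 and SAUR24, was in the low band at 0.349 and 0.422. Reads shared among the copies could be split by the authors' counting, so the contrast within the cluster is uncertain. The remaining kept member, SAUR29, had 2.03 and 0.674 and lay in no band.

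The low band held 5 loci with a symbol. FUM1, the mitochondrial fumarase of the citrate cycle, had 0.176 in replicate 1 and 0.203 in replicate 2. Its mean log2 index was -2.40 ± 0.111 (limma SE, with variance partly pooled over loci, n = 2, limma adjusted p = 0.0435). The other citrate cycle loci, 12 of 13 kept, lay above 1 in both libraries, where 82.5% of all loci did. Among them was the cytosolic fumarase FUM2 at 1.42 and 1.23. GRXC2, a glutaredoxin, had 0.286 and 0.273. RTM2, a small heat shock-like protein that restricts a potyvirus, had 0.394 and 0.363, and ESP, the separase of chromosome segregation, had 0.389 and 0.444. Together with SAUR19 these were called below 1, and their libraries differed by at most 1.21-fold.

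The remaining 14 low loci have no symbol in the name table and were picked out after their values were seen. AT1G33840 had 0.016 and 0.0141, the lowest index of all in both libraries, and AT2G23321 had 0.0884 and 0.0845. AT4G29770, which the name table also lists as HEAT-INDUCED TAS1 TARGET 1, a gene under the control of trans-acting small RNAs, had 0.174 and 0.227. AT3G60370 had 0.422 and 0.425. At AT2G23321 and AT3G60370 the libraries thus lay very close together.

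A run of locus numbers on chromosome 2 held 4 of the 19 low loci. Near its centromere chromosome 2 of Col-0 carries a large copy of the mitochondrial genome, and the loci numbered AT2G07667 to AT2G07835 lie in and around that copy together with nuclear genes and transposons. Of 68 such loci 42 were in both files and 22 were kept, and 14 of the 22 (63.6%) had an index under 1 in both libraries against 4.5% of all loci. Limma called 7 of them below 1, against 0.707% of all loci, and 4 above 1, a share close to the 21.5% of all loci. The medians were 0.832 and 0.819. With each library divided by its median, 15 of the 22 (68.2%) lay under 1 in both libraries, against 35.7% of all loci.

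AT2G07676 had 0.132 in replicate 1 and 0.0833 in replicate 2, AT2G07772 had 0.136 and 0.155, AT2G07728 had 0.472 and 0.232, and AT2G07671 had 0.484 and 0.437. Further loci under 1 were AT2G07777 at 0.539 and 0.443, AT2G07727 at 0.697 and 0.639 and AT2G07698 at 0.775 and 0.755. The run was not uniform: AT2G07718 was high at 5.39 and 5.33, and AT2G07741 had 1.79 and 1.96. The range of numbers was chosen after the values were seen. No source used here says how reads that match both the nuclear and the mitochondrial copy were placed. These values are uncertain for that reason, and the part of such reads in them was not tested.

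Of the 1070 loci on opposite sides of 1, the 8 with a symbol that differed most between libraries are given here. EXT3, an extensin of the cell wall, had 13 in replicate 1 and 0.942 in replicate 2, the largest fold between libraries among loci with a symbol (13.8). VPS54, a subunit of a tethering complex of the Golgi, had 5.67 and 0.536, and MYB3R-3, a cell cycle MYB factor, had 4.17 and 0.545. The auxin repressor gene IAA6 had 5.67 and 0.868, POLGAMMA2, an organellar DNA polymerase, 3.54 and 0.696, and SGF29a, a subunit of a histone acetylation complex, 4.17 and 0.947. In the other direction emb1974 had 0.571 and 4.75 and RPS10, a mitochondrial ribosomal protein, 0.864 and 4.75. None of the 8 passed the limma test, and no level can be given for them beyond these values.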

How the data were processed

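Each deposited table holds a linear ratio, the co-translational RNA decay index that the authors computed per gene model. Reads were processed with cutadapt 1.4.2 and STAR 2.4.0 on the TAIR10 build, per the submitters' processing notes; no source used here gives the formula or the depth. The 2 Col-0_CHX tables were joined by locus in Python 3.11.15 with pandas 2.3.3, and loci with a value shared by over 10 loci of a file were set aside. Symbols came from a RefSeq table of the TAIR10.1 assembly, which holds 8195 of the 8200 loci and a symbol for 4057; its coordinates were not used. Mean log2 indices were tested against 0 with limma 3.58.1 in R 4.3.3 over all loci, with Benjamini-Hochberg adjustment; the test was checked on simulated data. No pseudocount was needed, since no index was 0. The members, gene lists and tests were chosen with earlier results of these data known, and the lists were cleaned by gene names afterwards. Loci named are the 15 highest by their lower library, up to 15 lowest by their higher library, the 10 nearest to 1 and the 8 that differed most between libraries (all with a symbol). XRN4, DCP2 and ABH1 are named as well. The highest and lowest of each list were picked out too, but not all of them are named in the text. Further members of lists and families serve as examples. Protein length and sequence were planned as descriptors and were not analysed here.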

Additional observations from a re-analysis of the deposited data

How the results depend on the processing

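No paired analysis was possible because a single group is described. The level test called 1761 loci above 1 and 58 below. With libraries centred on their medians it called 0 and 1, with a limit of 20 loci for repeated values 0 and 0, with all listed loci 0 and 0 and with a trend 0 and 0. With quantile normalization it called 1842 and 58, with a robust fit 1397 and 45, and with a limit of 5 loci for repeated values 2192 and 65. At an adjusted p under 0.1 it called 4042 and 119. The smallest adjusted p was 0.0671 with the limit of 20, 0.180 with all loci and 0.0507 with the trend; the cause was not tested. Leaving out a replicate leaves no residual degrees of freedom and was not run for the test. The high band of 291 held 69 loci with libraries divided by their medians, 762 among all listed loci and 1457 with a limit of 1.5. The near-1 band of 1824 held 3615 with libraries divided and 893 within 0.2 on the log2 scale, and the low band of 19 held 48, 51 among all listed loci and 67 with a limit of 0.7. With a replicate left out the bands ranged over 567 to 801, 2780 to 3347 and 40 to 41, since a single library was then asked. Of 39 list medians under 5 alternatives each, 128 of 195 values stayed within the spread between libraries and 21 changed sign against the median of all loci, none of them for microRNA targets, early stress, ribosomal protein or photosystem genes. Among 116 named loci, 197 of 779 alternative values lost a call, 13 gained one and none reversed. With a replicate left out, microRNA targets held 8 to 9 high loci of 23 and early stress genes 11 of 14 near 1, alternatives chosen after seeing the data. Protein length was not run for lack of a protein table. Unknown depth limits every value.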

Other observations

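Of the 9327 loci set aside, 4973 had a repeated value in both libraries, 2222 in replicate 1 alone and 2132 in replicate 2 alone. Their median index was 1.4 in replicate 1 and 1.33 in replicate 2, against 1.34 and 1.27 for the loci kept. Genes set aside included SPL10, a squamosa promoter binding factor with 4 in replicate 1 and 0.667 in replicate 2, and GRF3, a growth-regulating factor with 3.38 and 5.70. Of 17527 loci in both files 129 had an identical index in both libraries, and 3 of those were kept, SWEET13 among them.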
